A study of Mus musculus and Rattus norvegicus with 26 samples.

Results

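Reads from introns of the genes for dystrophin and its complex were followed across pooled lists of retained intronic sequence from neurons, brown fat cells and heart muscle cells. Dystrophin (Dmd) and 8 genes of its complex or related to it (Utrn, Dag1, Dtna, Dtnb, Sgca, Sgcb, Sgcd and Sntb1) were taken by gene symbol, and these 9 genes stood among 13695 symbols in the 6 lists. Each list gives contigs, which are stretches of an intron covered by uniquely mapped sequencing reads, together with the number of reads of the whole intron. By the study's methods the dendrites were cut away from the cell body and its nucleus, while the somas, BAT cells and cardiomyocytes were collected with theirs, so that unspliced nuclear RNA and intron sequence retained in the cytoplasm cannot be told apart in those lists. A gene was counted once per transcript and intron, and each of the 9 genes had 1 transcript in a list.

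The lists came from single cells or from dendrites whose RNA was amplified in 3 rounds as antisense RNA (aRNA), with copying primed by poly(T). Mouse neurons were from hippocampus of C57BL/6 embryos at embryonic day 18 (3 dendrite and 3 soma libraries), and rat neurons from Sprague-Dawley embryos of the same day (2 dendrite and 3 soma libraries). Each dendrite library pooled many dendrites cut from cultured neurons, and each soma library was a single cell body. Brown adipose tissue (BAT) cells were from the interscapular depot of CD-1 embryos at day 17.5 (6 libraries), and cardiomyocytes from ventricles of transgenic C57BL/6 embryos at day 14.5 (9 libraries). The cardiomyocytes came from an embryo hemizygous for a Fucci cell cycle reporter and were sorted on fluorescence and viability, and BAT cells were picked by morphology. By the study's methods the neurons were grown in culture before collection, while the cardiomyocytes were sorted when freshly isolated. Age, culture and cell type changed together between the mouse neurons, BAT cells and cardiomyocytes, as did strain for the BAT cells. These cannot be told apart. Library numbers are those of the labels, the study's methods describe fewer BAT cells and cardiomyocytes, and which libraries entered each list is not known here.

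The libraries of a condition were pooled by the authors, so a condition is 1 list with no spread between replicates, and no test between conditions was possible. Values below are the read count of a gene and its reads per 1000000 listed reads (rpm), with an exact 95% Poisson interval. Ratios of rpm carry an exact 95% conditional binomial interval and shares an exact 95% binomial interval. These intervals cover counting error only, and amplified reads are not independent molecules. A gene with no contig in a list is called not listed, since it may have been filtered before the list was made, and no fold is given against it. In a pooled list, fewer cells with the RNA and less RNA per cell cannot be told apart.

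The lists held 1007530 (rat dendrites) to 17858440 (BAT cells) intronic reads from 3393 to 10220 genes, and the 10 introns with the most reads held 4.73% to 16.8% of a list. Of the cardiomyocyte markers, 8 of 10 were in the cardiomyocyte list with a summed level of 27426 rpm, and Nkx2-5 and Nppa were not listed there. The same list held 4 of 10 brown adipocyte markers (328 rpm), 2 of 10 neuron markers (373 rpm) and 2 of 5 endothelial markers (288 rpm). Of the brown adipocyte markers, 9 of 10 were in the BAT list (4719 rpm), which also held 6 of 10 cardiomyocyte markers (2780 rpm), 7 of 10 neuron markers (1041 rpm) and 6 of 10 skeletal muscle markers (375 rpm). Of the neuron markers, 8 of 10 were in the mouse soma list (8120 rpm), which also held 4 of 5 endothelial markers (733 rpm), and 7 of 10 in the mouse dendrite list (1310 rpm), while Map2 and Syn1 were in neither. The mouse dendrite list also held 6 of 10 cardiomyocyte markers (780.5 rpm), 6 of 10 brown adipocyte markers (338 rpm), 6 of 8 glial markers (968 rpm), 4 of 5 endothelial markers (639 rpm) and 3 of 5 vascular smooth muscle markers (470.4 rpm). In rat, 5 of 10 neuron markers were in the soma list (8644 rpm) and 3 of 10 in the dendrite list (1639 rpm). The rat dendrite list also held 3 of 6 fibroblast markers (319 rpm), 2 of 5 endothelial markers (250.1 rpm) and 2 of 8 glial markers (206 rpm). The part of these other cell types in the levels below was not tested.

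Dystrophin links the actin cytoskeleton inside the cell to dystroglycan in the plasma membrane, which in turn binds laminin outside. Sarcoglycans stabilise this link in muscle, and dystrobrevins and syntrophins join signalling proteins to it. Loss of dystrophin causes Duchenne muscular dystrophy, which also affects the heart and, in some patients, cognition. Utrophin is a paralog of dystrophin with the same partners. Dmd is one of the longest genes of the mouse, and nearly all of its length is intron: its transcript spans 2257239 nt of chromosome X (chrX:80194242-82451480, mm9, plus strand) with 78 introns that make up 99.3% of the locus.

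The sequences below are contigs picked for what lies at their ends, and most contigs have neither feature: 16 of 447 member contigs in the mouse lists had an adenine tract within 25 nt downstream, and 14 began at the 5′ end of the intron to within 1 nt. They were read from the mouse genome NCBIM37 (mm9) on the strand of the gene, 5′ to 3′. The first set shows contigs that end close to an adenine tract, where a poly(T) primer can also start, with the tract in capitals. In Dmd intron 1 the contig at chrX:80356957-80357307, in the cardiomyocyte list, ends 2 nt before 12 adenines, and its last 120 nt are shown (chrX:80357188-80357321). In Dmd intron 7 the contig at chrX:80823438-80823607, in the mouse dendrite list, ends 6 nt before 31 adenines (shown chrX:80823488-80823644), and a BAT contig covers the same place. In Utrn intron 65 the BAT contig at chr10:12135600-12136275 ends 4 nt before 14 adenines (shown chr10:12135582-12135719, minus strand). In Sgcd intron 6 the mouse soma contig at chr11:46809503-46809925 ends 1 nt before 23 adenines (shown chr11:46809479-46809622, minus strand), and a cardiomyocyte contig lies inside it.
Dmd intron 1: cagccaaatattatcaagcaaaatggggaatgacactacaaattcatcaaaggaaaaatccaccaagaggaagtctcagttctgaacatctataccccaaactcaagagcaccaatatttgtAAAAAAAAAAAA
Dmd intron 7: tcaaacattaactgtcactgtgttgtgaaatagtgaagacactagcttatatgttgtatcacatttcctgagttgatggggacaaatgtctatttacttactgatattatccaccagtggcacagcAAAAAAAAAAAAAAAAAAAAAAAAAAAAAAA
Utrn intron 65: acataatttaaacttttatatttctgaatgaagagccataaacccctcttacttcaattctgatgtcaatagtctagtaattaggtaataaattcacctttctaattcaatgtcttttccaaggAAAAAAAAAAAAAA
Sgcd intron 6: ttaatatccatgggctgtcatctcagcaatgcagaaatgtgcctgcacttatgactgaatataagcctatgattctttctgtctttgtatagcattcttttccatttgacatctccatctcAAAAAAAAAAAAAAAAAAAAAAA

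The second set shows contigs that begin within 1 nt of the first base of the intron, with the splice donor GT in capitals. The contig of Dmd intron 26 in the cardiomyocyte list (chrX:81058985-81059270) began at the first base of the intron, as did its contig in the mouse dendrite list. Listed contigs lie within introns, so this common start need not be a shared start of the RNA. In Utrn intron 21 the BAT contig at chr10:12431158-12431234 is listed as 1 nt short of the first base of the intron. The sequence is shown from the first base (chr10:12431158-12431235, minus strand). All member contigs in the mouse lists that reached the higher-coordinate end of an intron stopped 1 nt short of it. The offset is therefore not particular to this contig.
Dmd intron 26: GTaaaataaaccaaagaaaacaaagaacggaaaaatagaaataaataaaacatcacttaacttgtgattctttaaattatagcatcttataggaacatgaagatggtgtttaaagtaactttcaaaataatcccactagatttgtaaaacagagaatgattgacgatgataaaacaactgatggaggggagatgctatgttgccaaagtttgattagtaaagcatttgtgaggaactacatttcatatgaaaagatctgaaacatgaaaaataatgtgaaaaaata
Utrn intron 21: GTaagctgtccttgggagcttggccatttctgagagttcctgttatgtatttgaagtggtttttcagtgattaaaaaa

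Dmd was the gene with the most listed reads in cardiomyocytes, with 268547 reads or 22010 rpm (95% interval 21927 to 22094), ranking 1 of 6205 genes. The next genes were Trdn with 13010 rpm and Ryr2 with 11985 rpm, both of which encode proteins of calcium release in muscle. In the other mouse lists Dmd stood at 1980 rpm in dendrites (6111 reads, rank 41 of 8607), 1579 rpm in somas (2930 reads, rank 110 of 5895) and 1979 rpm in BAT cells (35337 reads, rank 58 of 10220). Dendrites and BAT cells had overlapping intervals (1931 to 2030 and 1958 to 1999), somas were lower (1522 to 1637), and the cardiomyocyte level stood apart from all of them. With only the introns that held a contig of at most 400 nt, the limit the study's methods set for whole cells, Dmd stood at 51862 rpm in cardiomyocytes, 4415 in BAT cells and 2591 in somas. Somas then lay above dendrites, whose list kept every contig, with a ratio of dendrites to somas that turned from 1.25 (1.20 to 1.31) to 0.764 (0.728 to 0.802). In rat somas Dmd had 14 reads in 1 contig of intron 14, or 6.68 rpm (3.65 to 11.2), and in rat dendrites it was not listed.

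Long genes can gather more intronic reads, so levels were also taken per kilobase of intron. Dmd stood at 9.82 rpm per kb of intron in cardiomyocytes, where the median over transcripts was 0.443 and 89.0% of 6236 transcripts lay lower. In mouse dendrites it stood at 0.883 (median 0.636), in mouse somas at 0.704 (median 0.643) and in BAT cells at 0.882 (median 0.318). Per length Dmd was therefore near the middle of both neuron lists, with 56.5% and 51.5% of transcripts below it.

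**Figure D1:**
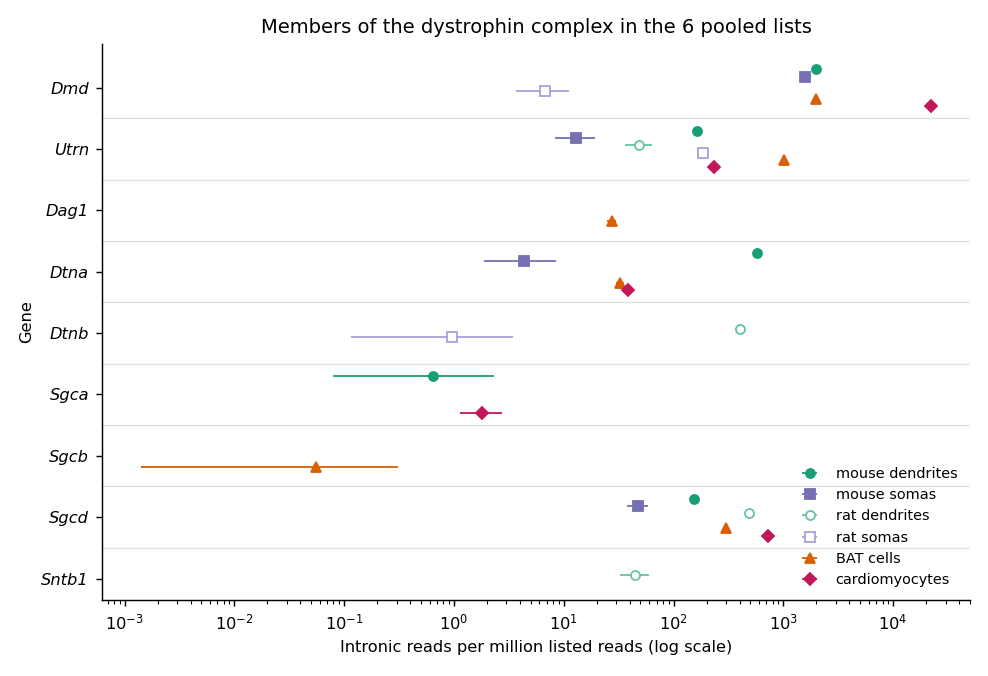
Intronic level in rpm (log scale) of the 9 genes in the 6 pooled lists, with exact 95% Poisson intervals for counting error; a gene with no point in a list was not listed there. Dmd in cardiomyocytes (22010 rpm) is the highest point, and Dtnb and Sntb1 have points from rat lists only.

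In cardiomyocytes against BAT cells Dmd was 11.1-fold higher (11.0 to 11.2). Called here means a change of at least 4-fold, and 28.3% of the 5442 genes in both lists were called higher and 34.3% lower. Of the 4 members in both lists, Dmd was called higher and Utrn lower, while Dtna (1.18, 1.05 to 1.34) and Sgcd (2.44, 2.36 to 2.53) were neither. The median log2 ratio over all genes was -0.32, and with that median set to 0 the ratio of Dmd was 13.9 and that of Utrn 0.290, which is not past 4-fold. Against mouse somas, in a comparison that shares the cardiomyocyte list, Dmd was 13.9-fold higher (13.4 to 14.5). All 4 members in both lists were called higher in cardiomyocytes there, where 26.2% of 3700 genes were, with a median log2 ratio of 3.87 over the members and -0.50 over all genes. The ratio was 18.2 for Utrn (12.2 to 28.4) and 8.93 for Dtna (4.50 to 20.8). With contigs of at most 400 nt, Utrn turned to 0.111 (0.0531 to 0.223), so that 3 of the 4 were called higher and Utrn lower. There 23.7% of 2701 genes were called higher and 40.4% lower. Dmd was called higher under this limit too, with an interval of 19.2 to 20.9 for the ratio. It was 11.7-fold higher than in BAT cells (11.6 to 11.9). An intron with a contig of at most 400 nt kept all its reads, so Dmd intron 1, with 33 contigs in cardiomyocytes, kept its 163979. The limit therefore does not show whether the call of Dmd rests on longer contigs. The deposited lists hold longer contigs too, and folds under the limit were added after the values were seen. Against mouse dendrites the ratio for Dmd was 11.1 (10.8 to 11.4), and 26.2 (25.5 to 26.9) with the limit in cardiomyocytes.

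A large share of this difference lay in 1 intron. Intron 1 of Dmd (chrX:80194487-80381966, 187480 nt) held 163979 of the 268547 cardiomyocyte reads, or 61.1%, and no other intron of that list held as many. It was also the Dmd intron with the most reads in dendrites (1673 reads, 27.4%), BAT cells (12396 reads, 35.1%) and, by a margin within counting error over the 558 reads of intron 53, somas (565 reads, 19.3%). For intron 1 alone, cardiomyocytes stood 19.4-fold above BAT cells (19.0 to 19.7), 44.1-fold above somas (40.6 to 48.0) and 24.8-fold above dendrites. Without intron 1, the whole gene was 6.67-fold (6.58 to 6.77), 6.72-fold (6.46 to 7.01) and 5.96-fold (5.78 to 6.14) higher, which is still past 4-fold. This alternative was chosen after the values were seen.

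Intron by intron the difference was uneven. Of 19 Dmd introns in both the cardiomyocyte and BAT lists, 14 had a higher rpm in cardiomyocytes and 12 of them by at least 4-fold. The ratio ran from 0.00658 in intron 39 (6 against 1335 reads) to 1046 in intron 45 (12860 against 18 reads). Against mouse dendrites 17 of 19 shared introns were higher, and against mouse somas 9 of 15. Intron 57, listed with 103 reads in dendrites and 148 in BAT cells, had 2 reads in cardiomyocytes.

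**Figure D2:**
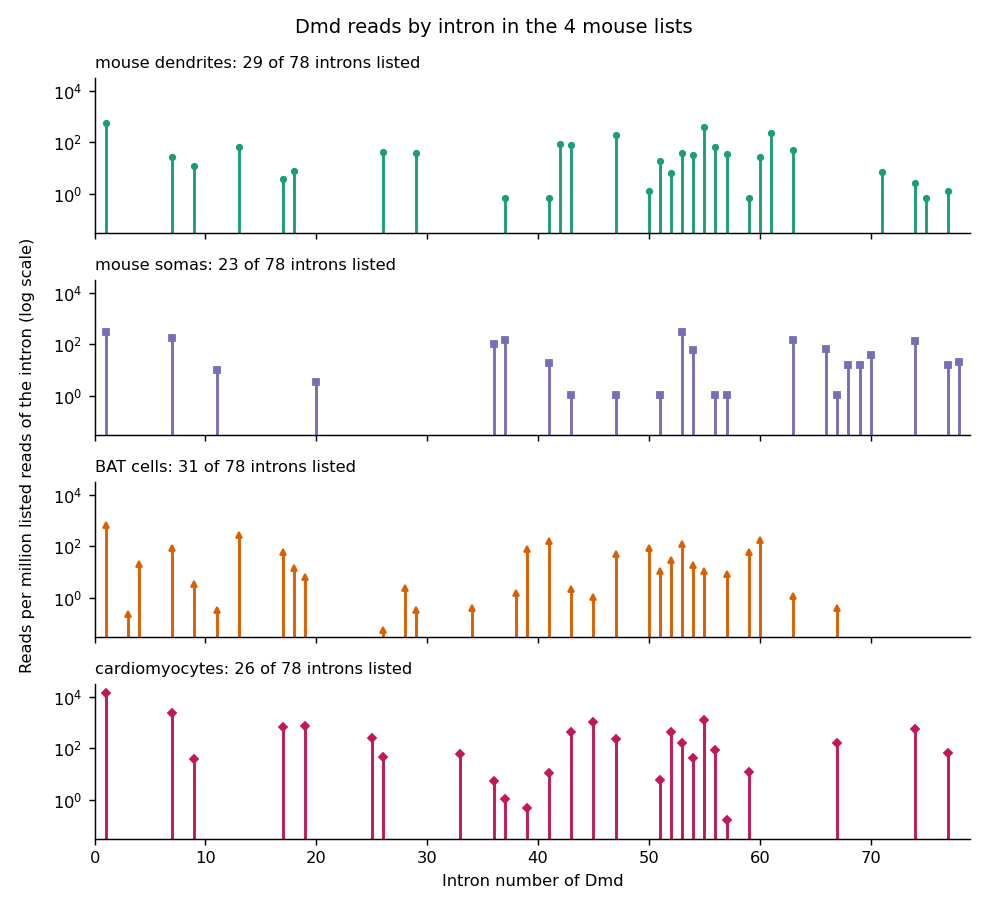
Level in rpm (log scale) of each listed Dmd intron, by intron number from the 5′ end of the gene, in the 4 mouse lists; an intron with no line was not listed. Intron 1 is the highest in every panel, and introns 63 to 78 hold 9 listed introns in somas against 2 in BAT cells.

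Dmd has internal promoters that make shorter proteins, the most common of which in brain starts in intron 62, so that introns 63 to 78 belong to long and short transcripts alike. The gene was divided at the known internal starts after the values were seen. Introns 63 to 78 make up 6.54% of the intronic length. They held 842 of 2930 reads in mouse somas, or 28.7% (27.1 to 30.4), and 193 of 6111 in mouse dendrites, or 3.16% (2.73 to 3.63). In cardiomyocytes the share was 3.50% (3.43 to 3.57), and in BAT cells 27 of 35337 reads, or 0.0764% (0.0504 to 0.111). Somas thus carried the largest share of their Dmd reads at the 3′ end. Per kb of intron this end stood at 3.09 rpm in somas against 0.551 for introns 1 to 29, and at 5.25 against 19.4 in cardiomyocytes, whose level was the higher at both ends.

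The 5′ end held most reads in cardiomyocytes and BAT cells. Introns 1 to 29, 40.2% of the intronic length, held 79.5% of the Dmd reads in cardiomyocytes (79.3 to 79.6) and 59.2% in BAT cells (58.7 to 59.7). In dendrites they held 37.0% (35.8 to 38.2) and in somas 31.5% (29.8 to 33.2), both under their share of the length. Introns 56 to 62 held 17.8% of the reads in dendrites but 4 reads, or 0.137%, in somas. Since the reads of a gene can rest on few introns and few cells, these shares describe the lists, and their spread between cells was not measured.

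Introns of Dmd recurred between lists. Of its 78 introns, 29 were listed in dendrites, 23 in somas, 31 in BAT cells and 26 in cardiomyocytes, and 48 in at least 1 mouse list. Of these 48, 31 (64.6%) were in 2 or more lists and 9 (18.8%) in all 4, against 39.5% and 3.70% of the 46599 introns of all genes. The 9 were introns 1, 7, 41, 43, 47, 51, 53, 54 and 57. Utrn had 39 introns in at least 1 mouse list, of which 17 (43.6%) were in 2 or more and 0 in all 4.

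Length went with listing. The median length of listed Dmd introns was 30352 nt in dendrites and 27602 nt in cardiomyocytes, and that of Dmd introns not listed 4935 and 5552 nt. Over all genes listed introns were also the longer ones, with medians of 3910 against 1407 nt in dendrites. Among introns of 30000 to 100000 nt, 12 of 15 in Dmd were listed in dendrites (80.0%), where 31.1% over all genes were. The figures were 12 of 15 against 30.7% in BAT cells, 9 of 15 against 25.2% in cardiomyocytes and 6 of 15 against 26.4% in somas. So the listed share of these long Dmd introns stood above that of introns of like length in all 4 lists, least in somas (40.0% against 26.4%). It rests on 15 Dmd introns and no interval was taken for it. Genes also differ in level, and this was not matched.

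**Figure D3:**
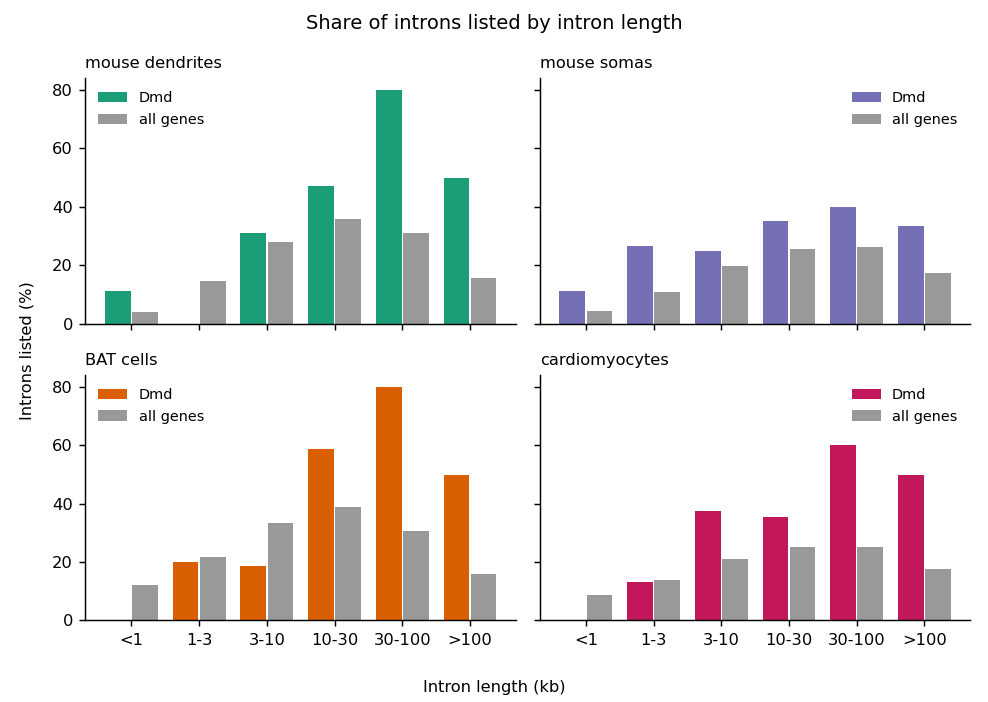
Percent of introns listed, by intron length in kb, for Dmd (coloured bars; 78 introns in all, 6 to 17 in a class) and for all transcripts of the list (grey bars). In the class of 30 to 100 kb the Dmd bar stands above the grey bar in each of the 4 mouse lists.

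Listing the same intron did not mean listing the same stretch of it. Of 83 Dmd contigs in BAT cells that lay in introns shared with cardiomyocytes, 17 (20.5%) overlapped a cardiomyocyte contig, and over all genes 39.7% did. Joined over the 4 mouse lists, Dmd contigs fell into 273 separate stretches, of which 234 were in 1 list, 30 in 2, 9 in 3 and 0 in all 4. Of the 9 stretches in 3 lists, 5 were in intron 1.

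Cardiomyocyte contigs of Dmd were long. Their median length was 554 nt, against 282 nt over all contigs of the list, and 57.8% of 102 were longer than 400 nt, against 36.2%. In somas (271 against 277 nt) and BAT cells (260.5 against 273 nt) the Dmd median was close to that of the list. The mean was 467 ± 349 nt in somas (SD, 33 contigs) against 391 ± 303 nt, with 42.4% over 400 nt against 32.7%, and 365 ± 226 nt in dendrites (79 contigs) against 352 ± 243 nt. The longest Dmd contig, 5969 nt in intron 7 (chrX:80828215-80834183), was the longest of the cardiomyocyte list. In intron 1 the contigs covered 18.1% of the intron in cardiomyocytes, with 33 contigs, and 7.08% in BAT cells, 2.60% in dendrites and 2.44% in somas. The 33 contigs were spread from 0.327 to 177 kb from the 5′ end of the intron, and 12 of them began in its first 50 kb.

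**Figure D4:**
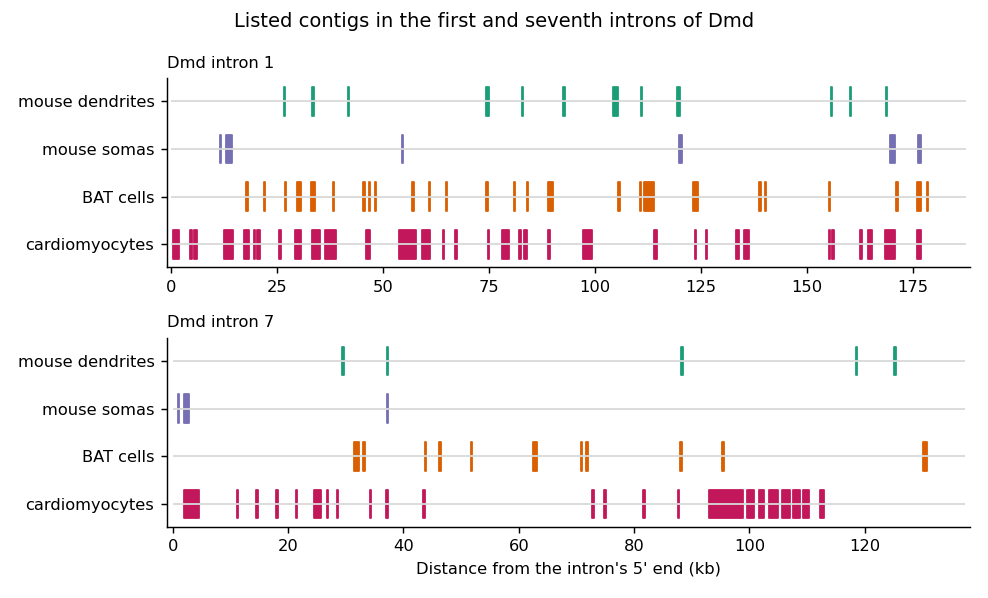
Listed contigs (bars) in introns 1 and 7 of Dmd by distance in kb from the 5′ end of the intron, in the 4 mouse lists; the shortest contigs are drawn wider than to scale so that they can be seen. Contigs of cardiomyocytes are the most numerous in both introns (33 and 23) and cover 18.1% and 14.8% of them.

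Contact with an exon of any annotated transcript was seen for 0 of 79 Dmd contigs in dendrites, where 5.04% of all contigs had it, and for 4 of 33 in somas (12.1% against 9.59%). It was seen for 2 of 108 in BAT cells (1.85% against 7.51%) and 2 of 102 in cardiomyocytes (1.96% against 11.4%). Intron length was not matched in these shares. A BAT contig in intron 7 overlapped an annotated U6 small nuclear RNA gene (chrX:80781361-80781746), and reads of the pair cannot be told apart there. Contigs of somas and cardiomyocytes in the first stretch of intron 7 overlapped Dmd-014, a Dmd transcript annotated as retaining an intron.

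Utrn, whose product can stand in for dystrophin and lies at the neuromuscular junction in adult muscle, showed another order of lists. Its level was highest in BAT cells at 1011 rpm (996 to 1026), with 18058 reads in 31 of 73 introns (chr10:12101986-12581533, minus strand). It stood at 235 rpm in cardiomyocytes (2868 reads, 7 introns), 164 rpm in mouse dendrites (505 reads, 17 introns) and 12.9 rpm in mouse somas (24 reads, 5 introns). In rat Utrn stood at 187 rpm in somas (392 reads) and 48.6 rpm in dendrites (49 reads). This order rests on a soma contig of 1166 nt in intron 46, and with contigs of at most 400 nt in somas the ratio of dendrites to somas was 1.08 (0.664 to 1.78). The intervals of mouse dendrites (149.7 to 179) and rat somas (169 to 207) overlapped, and those of the 4 mouse lists did not overlap each other. With contigs of at most 400 nt in whole cells Utrn stood at 298 rpm in BAT cells, 27.0 in mouse somas and 3.00 in cardiomyocytes.

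Against BAT cells Utrn was 4.30-fold lower in cardiomyocytes (4.14 to 4.48), the opposite direction to Dmd, and with contigs of at most 400 nt the ratio was 0.0101 (0.00550 to 0.0169). Over the 5 introns in both lists the summed ratio was 0.649 (0.621 to 0.678), still lower but not past 4-fold. Their directions were split. Introns 13 (36.1 against 4.98 rpm), 54 (41.6 against 2.69) and 61 (156 against 23.1) were higher in cardiomyocytes. Introns 45 (0.492 against 330.3) and 60 (0.164 against 0.560) were lower, and intron 45 held most of the BAT reads among the 5. Against mouse somas Utrn was 78.2-fold higher in BAT cells (52.5 to 122), where 26.7% of 5076 genes were called higher, and Dtna and Sgcd were called higher too while Dmd was 1.25-fold higher. With contigs of at most 400 nt Utrn was 11.0-fold higher there (7.38 to 17.2). In mouse dendrites against somas Utrn was 12.6-fold higher (8.40 to 19.9), and 33.2% of 4739 genes were called higher. It was 6.05-fold higher (4.02 to 9.53) with contigs of at most 400 nt in somas. Over the 2 introns listed in both, 34 and 63, that ratio was 1.13 (0.595 to 2.21), so that the difference lay in introns not shared by the lists. The comparisons over shared introns were added after the values were seen.

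**Figure D5:**
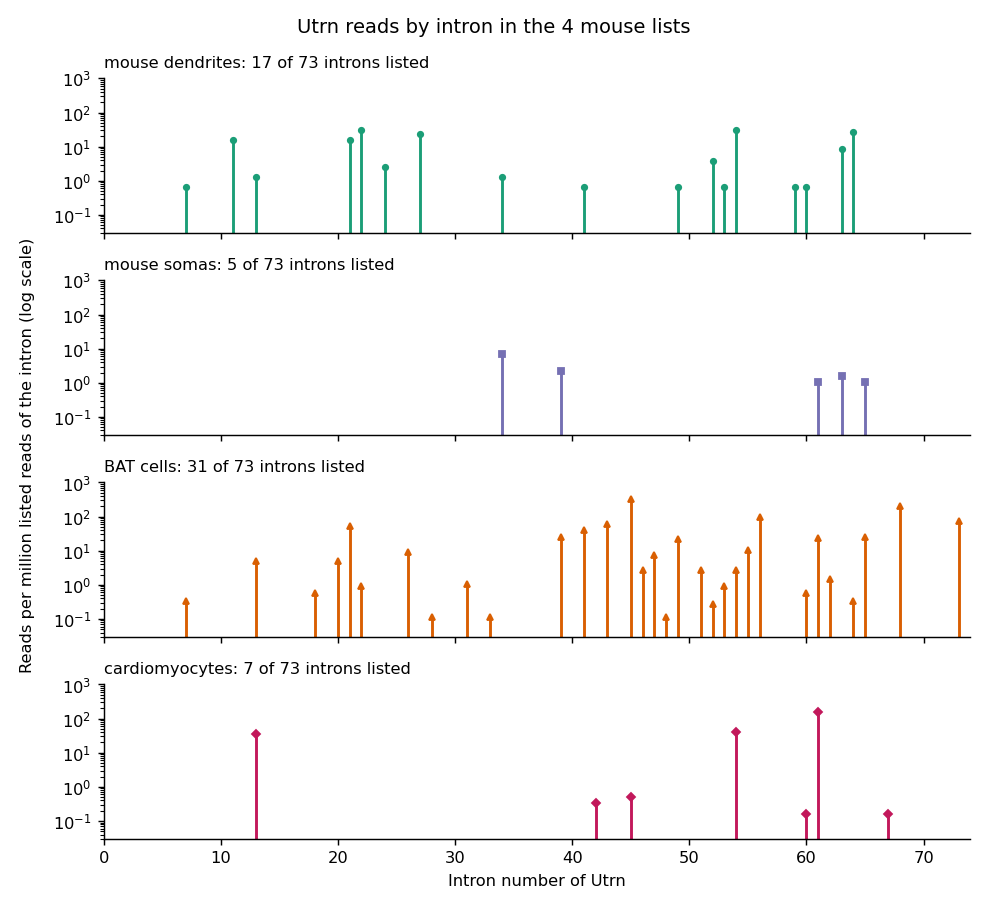
Level in rpm (log scale) of each listed Utrn intron, by intron number from the 5′ end of the gene, in the 4 mouse lists; an intron with no line was not listed. BAT cells have 31 of 73 introns, with the highest values at introns 45 and 68, and somas have 5, each under 10 rpm.

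In BAT cells the Utrn reads were spread over the gene, with 5898 in intron 45, 3654 in intron 68, 1702 in intron 56 and 1339 in intron 73. In cardiomyocytes 1906 of 2868 reads, or 66.5%, were in 1 contig of intron 61 (chr10:12166999-12167759). In dendrites no Utrn intron passed 92 reads. A contig of intron 54 ended at nearly the same base in dendrites (chr10:12204344-12204685) and cardiomyocytes (chr10:12204343-12204982). Of 43 Utrn contigs in BAT cells, 8 (18.6%) reached to within 1 nt of an end of the intron, against 0 of 108 Dmd contigs and 27.9% of all contigs there. The median length of listed introns there was 4125 nt for Utrn, 29227 nt for Dmd and 2737 nt over all genes.

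Dag1 encodes dystroglycan, the membrane receptor of the complex that binds both laminin and dystrophin. It was listed in BAT cells only, with 489 reads (447 to 534) or 27.4 rpm in 2 contigs of intron 3, and it has 3 introns (chr9:108108289-108166255, minus strand). Both contigs, of 583 and 486 nt, are over 400 nt, so that Dag1 is in no list under that limit. Genes with an intron of many reads were counted at a low minimum of 32 reads and at a high minimum of 8 times as many. The high minimum was passed by 5 of the 6 members listed in BAT cells, where 40.2% of genes passed it. The other lists had 4 of 5 members past it in cardiomyocytes (42.9% of genes), 3 of 5 in mouse dendrites (23.5%), 1 of 4 in mouse somas (18.7%), 2 of 4 in rat dendrites (15.8%) and 1 of 3 in rat somas (30.4%). At 32 reads the members were 5 of 6 in BAT cells (67.9% of genes), 4 of 5 in cardiomyocytes (64.8%), 4 of 5 in mouse dendrites (62.4%), 2 of 4 in mouse somas (54.1%), 3 of 4 in rat dendrites (48.6%) and 1 of 3 in rat somas (55.1%).

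Of the 3 sarcoglycans among the members, which are small transmembrane partners of dystroglycan, Sgcd was the one with many reads. Sgcd (delta) stood at 728 rpm in cardiomyocytes (713 to 743, 8882 reads), 298 rpm in BAT cells (5326 reads), 155 rpm in mouse dendrites (479 reads) and 47.4 rpm in mouse somas (88 reads). It was 485 rpm in rat dendrites (489 reads in intron 2) and not listed in rat somas. Among the 4 members with a value in every mouse list, Dmd and Sgcd were highest in cardiomyocytes, Utrn in BAT cells and Dtna in dendrites, and all 4 were lowest in somas. With contigs of at most 400 nt in whole cells, Utrn was lowest in cardiomyocytes and Dmd in mouse dendrites. Cardiomyocytes against BAT cells gave 2.44 (2.36 to 2.53), under 4-fold, and cardiomyocytes against somas 15.3 (12.4 to 19.2).

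The gene spans chr11:46792287-47193024 (minus strand) and has 7 introns in the transcript used. Intron 6 (101844 nt) held the most Sgcd reads in all 4 mouse lists, from 58.8% in BAT cells to 86.4% in somas. Introns 3 and 5 were each in 3 mouse lists. Per kb of intron Sgcd stood at 1.82 rpm in cardiomyocytes, above 68.5% of transcripts, and at 0.119 in somas, above 24.2%.

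Sgca and Sgcb, the alpha and beta subunits, were barely listed. Sgca had 22 reads in cardiomyocytes (1.80 rpm) and 2 in mouse dendrites (0.648 rpm), with overlapping intervals, and both came from 1 contig of intron 7. The dendrite contig at chr11:94831227-94831434 (minus strand) is shown because both lists gave the same stretch, and its 154 nt in common with the cardiomyocyte contig are in capitals. Sgcb had 1 read in intron 4 in BAT cells. The capitals resemble a B2 element, a short repeat with many copies in the mouse genome, and whether other copies added reads was not tested. These counts are too low to order the lists. Their genes are short, with 13537 and 12405 nt.
Sgca intron 7: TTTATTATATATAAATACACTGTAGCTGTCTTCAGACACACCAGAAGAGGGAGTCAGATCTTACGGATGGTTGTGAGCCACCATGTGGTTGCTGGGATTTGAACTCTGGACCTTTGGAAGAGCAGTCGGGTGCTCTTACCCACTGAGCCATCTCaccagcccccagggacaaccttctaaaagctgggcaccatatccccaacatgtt

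Dtna and Dtnb encode alpha- and beta-dystrobrevin, which bind dystrophin and syntrophins, Dtnb mainly in brain and other non-muscle tissues. Dtna stood at 579.6 rpm in mouse dendrites (553 to 607, 1789 reads), 38.5 rpm in cardiomyocytes (470 reads), 32.5 rpm in BAT cells (581 reads) and 4.31 rpm in mouse somas (8 reads). Dendrites were thus 134-fold above somas (68.1 to 312), with 1703 of the 1789 reads in intron 5. The single soma contig was in the same intron and, over that intron alone, the ratio was 128 (64.8 to 297). It was 64.3 (32.6 to 149) with contigs of at most 400 nt in somas. The main intron differed between lists: intron 8 held 93.8% of the reads in BAT cells, and intron 3 all of them in cardiomyocytes. Per kb of intron Dtna in dendrites stood at 2.44 rpm, above 77.0% of transcripts.

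Dtnb was listed in rat only. It had 404 reads or 401 rpm in rat dendrites (363 to 442), 325 of them in 1 contig of 250 nt in intron 15, and 2 reads or 0.955 rpm in rat somas (0.116 to 3.45). The ratio was 419.9 (116 to 3479), resting on those 2 soma reads, and no intron was in both lists. Under the limit of 400 nt in somas it was 124 (34.2 to 1031). Of the 2 members in both rat lists Dtnb was called higher in dendrites, where 35.7% of 2166 genes were called higher, and Utrn, at 0.260 (0.189 to 0.350), was not called. The median log2 ratio over all genes was 0.73 there, and relative to it Utrn stood at 0.156, past 4-fold lower.

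Sntb1 encodes beta-1-syntrophin, an adaptor that brings signalling proteins to the complex. It was listed in rat dendrites only, with 45 reads or 44.7 rpm (32.6 to 59.8) over introns 1 to 4, of which intron 3 had 24. Rat introns are given by number alone, and their lengths were not analysed here.

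Between species few members could be compared. Utrn and Sgcd were in both dendrite lists, at 3.36 (2.51 to 4.61) and 0.320 (0.281 to 0.363) for mouse over rat, and neither was called, where 26.6% of 2763 genes were called higher and 35.2% lower. Relative to the median of all genes (log2 -0.62) Utrn stood at 5.15, past 4-fold. In somas Dmd was 236-fold higher in mouse (141 to 433) and Utrn 14.5-fold lower (9.58 to 22.9), where 30.4% of 1775 genes were called higher and 31.5% lower. The ratio under the limit of 400 nt was 115 for Dmd (68.3 to 210.4) and 0.599 for Utrn (0.333 to 1.07), which is not past 4-fold. The 2 soma values of Dmd rest on 2930 and 14 reads.

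Adenine tracts near contigs were compared with the whole lists. A tract of at least 10 adenines on the gene strand lay within 300 nt downstream of 33 of 447 member contigs in the 4 mouse lists, or 7.38% (5.14 to 10.2). Over all contigs the share was 9.40% (9.22 to 9.58), inside that interval. For Dmd it was 18 of 322, or 5.59% (3.35 to 8.69), with 8.86% in dendrites (all contigs 8.11%), 12.1% in somas (18.6%), 2.78% in BAT cells (7.36%) and 3.92% in cardiomyocytes (9.53%). Tracts inside the contig were held by 11.8% of Dmd contigs and 10.3% of all. Of the 33 contigs, 16 had the tract within 25 nt. The base composition of Dmd contigs was low in G and C, at 35.9% ± 6.02 (SD, 322 contigs) against 41.2% ± 7.26 over all contigs, and Utrn contigs were at 40.0% ± 6.88 (74 contigs).

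Contigs that reach an end of their intron made up different shares of Dmd contigs in each list. In the 4 lists together 12 of 322 Dmd contigs (3.73%) came to within 1 nt of an intron end, against 21.4% of all contigs. In somas 5 of 33 did (15.2%), near the 13.4% of all contigs there, and in dendrites 1 of 79 (1.27%) against 8.28%. In cardiomyocytes 6 of 102 did, at introns 25, 26, 37, 39 and 45, where 31.9% of all contigs did. Listed Dmd introns were longer than listed introns of all genes in every mouse list, with medians of 27602 against 2748 nt in cardiomyocytes. These shares were not matched for intron length. The contig at the 5′ end of intron 45 (chrX:81517467-81518370) belonged to an intron with 12860 reads, at 573 reads per 50 nt of contig, the highest such density of any listed Dmd intron.

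Other genes of the complex were taken as a list of 12. Of these Sspn, the tetraspanin-like partner of sarcoglycans, was in no list. Of the 11 in at least 1 list, 8 had an intron past the high minimum in a list, beside 49.5% of the 13695 genes in any of the 6 lists. Sgce (epsilon-sarcoglycan) stood at 1605 rpm in BAT cells, 1366 in cardiomyocytes, 482 in mouse somas and 89.1 in mouse dendrites. Lama2, the laminin chain that dystroglycan binds, was at 1185 rpm in BAT cells and 436 in cardiomyocytes, against 122 in mouse dendrites and 47.4 in mouse somas.

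Sntg1 (gamma-1-syntrophin, found mainly in brain) was in all 6 lists, highest in rat somas at 2987 rpm and lowest in cardiomyocytes at 25.6 rpm. Of its 6256 reads in rat somas, 6245 were in intron 1. Sntb2 was highest in BAT cells (141 rpm) and Drp2, a dystrophin-related protein, in mouse dendrites (144 rpm). Sntg2 reached 861 reads in BAT cells. In cardiomyocytes against BAT cells, 1 of 6 listed in both (Cav3) was called higher and 2 (Sntb2 and Sntg1) lower. The call of Cav3 rests on 2 reads in BAT cells (65 in cardiomyocytes). That of Sntb2 rests on 2 reads in cardiomyocytes (2525 in BAT cells). The median log2 ratio of the 6 was -1.06 against -0.32 over all genes. Over all genes 28.3% were called higher and 34.3% lower, so that these counts are near the background. Cav3 was named after its values were seen.

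Genes that add sugars to dystroglycan, on which its binding to laminin depends, were taken as a list of 17. Of these Ispd, Gtdc2, Sgk196, B3gnt1, Gmppb and Dolk were in no list under these symbols, and of the 10 in at least 1 list 4 passed the high minimum in a list, beside the same 49.5% of all genes. Large, the enzyme that builds the laminin-binding glycan, was in all 6 lists, from 345 rpm in BAT cells to 2297 rpm in mouse somas, with 1967 rpm in cardiomyocytes. Dpm1 and B3galnt2 were highest in rat dendrites, at 1043 and 1316 rpm. Pomt2 had 147 rpm in mouse dendrites and 24.2 in BAT cells. In cardiomyocytes against BAT cells 1 of 5 (Large) was called higher and 1 (Tmem5) lower, beside 28.3% and 34.3% of all genes. Tmem5 had 7 reads in cardiomyocytes and 230 in BAT cells. The median log2 ratio of the 5 was -0.04 against -0.32 over all genes, and Tmem5 was named after its values were seen.

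The genes most like Dmd in level were found by the Euclidean distance over log2(rpm + 1) in the 4 mouse lists, among 12466 genes listed in at least 1 of them. Pitpna was nearest at 1.13, with 2554 rpm in dendrites, 1736 in somas, 1879 in BAT cells and 10591 in cardiomyocytes. Nebl followed at 2.89 and Ctnna3 at 2.94, and in cardiomyocytes they stood at 8215 and 7991 rpm. No spread between libraries was available for these distances.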

How the data were processed

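Read counts per intron were taken as deposited. The authors trimmed reads of adapter and homopolymers, aligned them with the RUM pipeline, kept reads with a unique place in an intron, dropped introns overlapping a gene prediction or holding a known polyadenylation site, and joined nearby reads into contigs. The submitters' processing notes give the builds mm9 and rn4. Libraries of a condition were pooled in the lists, and which of the 26 labelled libraries entered them is not known here. Contigs over 400 nt are still in the lists. Groups were taken from the labels.

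Each transcript and intron was counted once and scaled to the list's total, which ran from 1007530 to 17858440 reads. Introns were numbered as the files give them, and lengths, exons and sequences came from NCBIM37 with GENCODE vM1, in which 12777 of 13156 transcripts (97.1%) were matched. Tract counts left out 62 contigs on unplaced sequences. Intervals were exact at 95%, and no test between conditions was made because each condition is 1 list. Python 3.11.15, pandas 2.3.3, numpy 2.4.6, scipy 1.17.1 and matplotlib 3.10.9 were used, and scripts were tested on simulated data.

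The members and lists were chosen with earlier results of these data known. Named were the 9 members, the genes of the other lists with at least 256 reads in 1 intron or found in no list, and the 3 genes nearest to Dmd. A few genes of these lists are not reported here. Alternatives were a minimum of 32 reads, other fold thresholds, totals without the 10 introns with the most reads, scaling to the median ratio, contigs of at most 400 nt in whole cells (an intron with such a contig keeps all its reads, since reads are given per intron), joined contigs and other tract lengths and distances. Marker levels not given above include fibroblast (80.0 rpm in mouse dendrites, 55.0 in mouse somas, 33.9 in BAT cells, 0 of 6 genes in cardiomyocytes) and endothelial (206 rpm in BAT cells). Glial markers stood at 143 rpm in mouse somas, 148 in rat somas and 45.8 in BAT cells, with 0 of 8 genes in cardiomyocytes.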

Additional observations from a re-analysis of the deposited data

How the results depend on the processing

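Of 81 alternatives to summary results, 52 stayed within the limit set for them, 29 moved and 0 reversed, and of 145 for single members 79 stayed, 65 moved and 1 reversed, where only a value past 4-fold could count as reversed. The reversed one was Utrn in cardiomyocytes against mouse somas, at 0.111 with contigs of at most 400 nt in whole cells, an alternative for folds that was added after seeing the data. Under it Dmd in mouse dendrites against mouse somas, not past 4-fold, also changed direction, from 1.25 to 0.764, and 1 of 2 members was past 4-fold in mouse against rat somas, beside 58.8% of all genes. With at least 32 reads in an intron, listed member introns were 29 in mouse dendrites, 13 in mouse somas, 4 in rat dendrites, 1 in rat somas and 46 in BAT cells, and listed members were 2 in mouse somas and 1 in rat somas. Without the 10 introns with the most reads in the total, the summed level of the members was 3026 rpm in mouse dendrites, 1808 in mouse somas, 1177 in rat dendrites, 224 in rat somas, 3514 in BAT cells and 24948 in cardiomyocytes. With contigs of at most 400 nt it was 2726 rpm in mouse somas, 70.9 in rat somas, 5478 in BAT cells and 53243 in cardiomyocytes, with 23 member introns in cardiomyocytes. At 8-fold, 1 of 4 members was past the threshold in cardiomyocytes against BAT cells (46.3% of all genes, in either direction) and 1 of 4 in BAT cells against mouse somas (2285 of 5076 genes). At 2-fold, 2 of 2 were past it in rat dendrites against rat somas (79.4%) and 2 of 2 in mouse against rat dendrites (81.9%). With the median ratio set to 1, 1 of 4 was past 4-fold in cardiomyocytes against BAT cells (62.3%), 2 of 2 in rat dendrites against rat somas (57.8%) and 1 of 2 in mouse against rat dendrites (61.3%). Tracts lay near 13.4% of member contigs for at least 8 adenines, 4.25% for at least 12 and, in an alternative added after seeing the data, 3.58% within 25 nt. Apart from what the definitions of these alternatives change, the cause was not tested. No paired analysis was possible because each condition is 1 pooled list, and for the same reason no library could be left out.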
